A study of Saccharomyces cerevisiae with 6 samples.

Results

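The *VPS* genes of *Saccharomyces cerevisiae* were examined in the array data of strain F12 fermenting with and without insoluble solids (IS). They are the genes whose standard symbol is *VPS* (vacuolar protein sorting) followed by a number. Symbols were found through the systematic name of each row, and 41 of the 42 genes that RefSeq lists under such a symbol had a row. These 41 genes held 41 of the 5705 probe sets of the table, which stand for 5657 systematic names. *VPS63* was the 1 symbol without a row and is not analysed here. A further 17 genes carry a *VPS* number only as an older synonym, such as *PEP5* (*VPS11*) and *VAM6* (*VPS39*). They fall outside the family as defined here, and their values are given only beside those of its members.

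The strain, F12, is an engineered industrial yeast used to make ethanol from plant biomass. Cells were sampled after 4 h of fermentation in YNB medium, to which glucose (20 g/L) and ammonium sulfate (7.5 g/L) had been added. The 2 conditions were 40% (w/w) IS, for which glass beads stood in for plant fibres, and no IS as the control, with 3 arrays for each. Biotin-labelled cDNA made from total RNA was hybridized to Affymetrix yeast arrays, on which a set of short probes reads a transcript. Whether the 3 RNA replicates of a condition came from separate cultures is not given in the sources used here.

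The value used for each probe set was the authors' mean log2 signal over the 6 arrays. This reading rests on the column's name, which is limma's label for that mean, since no column names a sample. The value is then the mean of both conditions together, so it carries no difference between cells with and without IS. The table also holds the authors' own comparison of the conditions, and those columns were not used. No effect of IS on any *VPS* gene is therefore given, nor an error for any value, because a pooled mean has no replicate values. A mean signal shows how bright a probe set was in this experiment. Probe sets bind their transcripts with different strength, so neither an order of transcript levels nor a ratio between genes is read from them. Depth has no meaning for an array, and the number of arrays limits the precision.

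*VPS* genes were named in screens for mutants that secrete a hydrolase which normal cells deliver to the vacuole, the lysosome of yeast. Their products act on the route from the Golgi through the endosome to the vacuole. Tethering complexes and a Rab GTPase bring membranes together, ESCRT complexes sort ubiquitinated membrane proteins into vesicles inside the endosome, and retromer and GARP serve the return route to the Golgi. The same screens also caught genes with other roles, including subunits of chromatin complexes.

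Over the whole table the mean log2 signal ran from 6.20 to 14.14, with quartiles at 8.03, 8.79 and 9.74. The 41 *VPS* probe sets ran from 7.17 to 10.34, with a median of 8.50. Of these, 6 lay in the lowest quartile of the table, 18 in the next, 12 in the one after it and 5 in the brightest quartile. The family thus had 24 probe sets below the median of the table and 17 above it. This is a description of brightness, and no test was run on it.

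**Figure D1:**
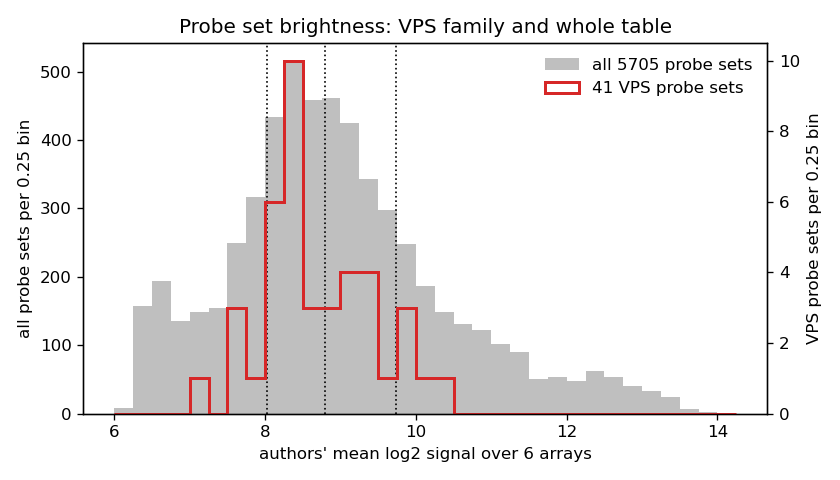
Number of probe sets (vertical axes) against the authors' mean log2 signal over 6 arrays (horizontal axis, bins of 0.25). Grey bars, read on the left, are all 5705 probe sets, the red outline, read on the right, is the 41 *VPS* probe sets, and dotted lines mark the table's quartiles at 8.03, 8.79 and 9.74. The *VPS* probe sets fall between 7.17 and 10.34.

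HOPS and CORVET are tethers that hold membranes together before fusion, HOPS at the vacuole and CORVET at the endosome. Both are built on the same class C core of 4 proteins. In the core, the mean log2 signal was 8.30 for *VPS16* and 8.61 for *VPS33*, which encodes the SM protein that guides SNARE assembly. The partners *PEP5* (*VPS11*) and *PEP3* (*VPS18*) were at 8.31 and 7.72. All 4 core probe sets were thus below the table's median, and that of *PEP3* was in its lowest quartile.

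Each tether adds a pair of subunits of its own. For HOPS these were *VPS41* at a mean log2 signal of 7.75 and the partner *VAM6* (*VPS39*) at 8.09. For CORVET, *VPS3* was at 7.56 and *VPS8* at 8.50. With the core, these tether subunits made up 8 probe sets, none of which reached the median of the table. In the family as a whole, 24 of the 41 *VPS* probe sets lay below that median. *VPS41* and *VPS3* lay in the lowest quartile.

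*VPS21* encodes a Rab GTPase of the endosome, a yeast counterpart of mammalian Rab5, and its probe set had a mean log2 signal of 9.26. *VPS9*, its nucleotide exchange factor, was at 8.28. *VPS45*, an SM protein for fusion at the endosome and trans-Golgi, was also at 8.28. Among these, the GTPase's probe set was the 1 in the upper part of the table.

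ESCRT-0 recognizes ubiquitinated cargo at the endosome, and its subunit *VPS27* had a mean log2 signal of 9.46. In ESCRT-I, *VPS28* was at 8.62, with the partners *STP22* (*VPS23*) at 8.72 and *SRN2* (*VPS37*) at 7.90. The ESCRT-II genes *VPS25* and *VPS36* were at 8.47 and 8.34, and the partner *SNF8* (*VPS22*) at 8.18. ESCRT-III forms the filaments that cut vesicles off into the endosome. Here *VPS20* and *VPS24* were at 8.30 and 8.24, while the partners *DID4* (*VPS2*) and *SNF7* (*VPS32*) were at 9.44 and 9.18. *VPS60*, an ESCRT-III-like protein, was at 9.15. *VPS4*, the ATPase that takes ESCRT-III apart, was at 9.95, in the brightest quartile. Of the 8 ESCRT probe sets with a *VPS* symbol, 5 lay in the second quartile of the table and none in the lowest. With the partners named here, 7 of 13 lay in the second quartile and 1, that of *SRN2*, in the lowest. In the family as a whole, 18 of the 41 *VPS* probe sets lay in the second quartile and 6 in the lowest.

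Retromer carries sorting receptors back from the endosome to the Golgi. Its cargo-selecting subunits *VPS35* and *VPS29* had mean log2 signals of 9.33 and 9.02, and the partner *PEP8* (*VPS26*) was at 9.29. The sorting nexins *VPS17* and *VPS5*, which shape the membrane tubule, were at 9.21 and 8.19. Hence 4 of the 5 retromer probe sets lay in the third quartile of the table, and *VPS5* in the second. In the family as a whole, 12 of the 41 *VPS* probe sets lay in the third quartile. *PEP1* (*VPS10*), the receptor for carboxypeptidase Y that retromer returns, was in the brightest quartile at 9.90.

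GARP tethers the vesicles that arrive at the Golgi from endosomes, and all its 4 subunits carry a *VPS* symbol. *VPS53* and *VPS54* had mean log2 signals of 8.94 and 8.95. *VPS51* and *VPS52* were at 7.17 and 7.71, both in the lowest quartile. The probe set of *VPS51* gave the lowest value of the family. The subunits of this complex were therefore read by probe sets of unequal brightness, from which nothing follows about their transcripts.

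*VPS34* encodes the phosphatidylinositol 3-kinase of yeast and *VPS15* the protein kinase-like subunit that activates it. They had mean log2 signals of 9.02 and 8.81. *VPS30*, known also as *ATG6* and shared by the autophagy and sorting forms of the complex, was at 8.30. *VPS38*, which marks the sorting form, was at 7.96 and in the lowest quartile of the table.

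*VPS1*, a dynamin-like GTPase, had a mean log2 signal of 10.34, the highest value in the family. *VPS13*, a large lipid transfer protein at membrane contact sites, was at 9.94. *VPS74*, which holds glycosyltransferases in the Golgi, was at 9.48. *VPS55* and *VPS68*, whose products work together at the late endosome, were at 9.93 and 10.11. Together with *VPS4*, the genes *VPS1*, *VPS13*, *VPS55* and *VPS68* were the 5 of the brightest quartile.

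Chromatin genes made up 3 of the 41 members. *VPS71* and *VPS72* encode subunits of SWR1, the complex that places the histone variant H2A.Z, and had mean log2 signals of 8.22 and 8.37. *VPS75*, a histone chaperone, was at 9.69. The members left were *VPS62* (8.13), *VPS64* (8.17), *VPS70* (8.67), *VPS73* (8.36) and *VPS501* (8.03). All of these were below the table's median, and *VPS501* was just inside the lowest quartile. The grouping used here left 7 synonym genes without a complex, which does not mean that they act outside one. These were *PEP7*, *PEP12*, *VAM7*, *NHX1*, *DID2*, *BRO1* and *LOA1*, and they ran from 7.61 for *VAM7* to 9.66 for *NHX1*.

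**Figure D2:**
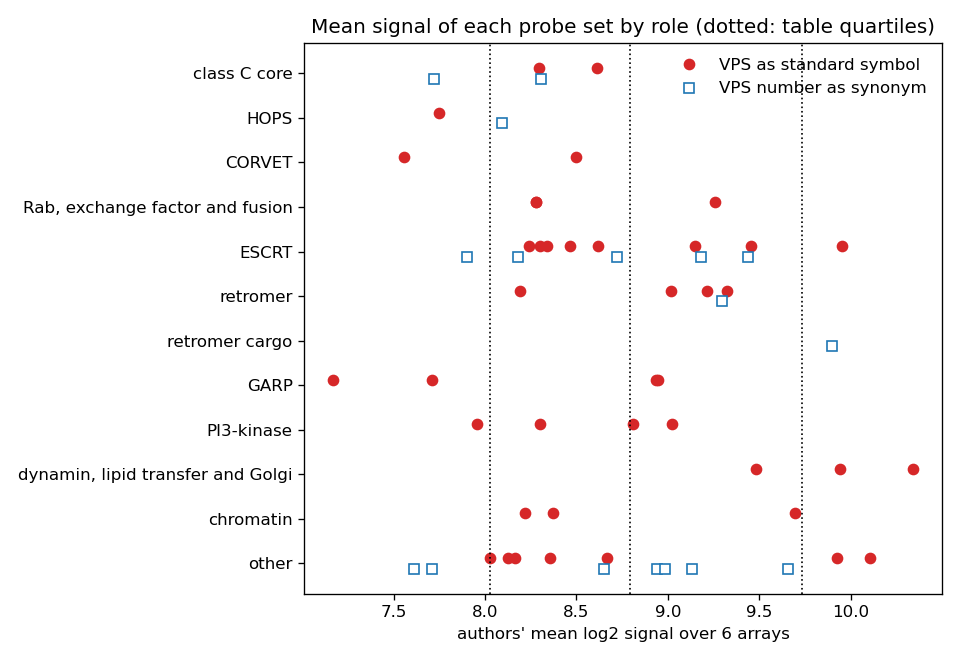
Authors' mean log2 signal over 6 arrays (horizontal axis) of each probe set, in rows by role. Red points are genes with a *VPS* symbol, open squares are genes with a *VPS* number as synonym, and dotted lines are the quartiles of the table at 8.03, 8.79 and 9.74. Points of HOPS, CORVET and their class C core lie below the middle line, as do 24 of the 41 red points over all rows. Of the 5 retromer points, 4 lie between the middle and the right line, as do 12 of the 41 red points over all rows.

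All 41 *VPS* probe sets and all 17 of the synonym partners were of the plain type, whose identifier ends in "_at" alone. Among the rows of the table as a whole, 128 probe sets were of other types, which can be shared by several genes. No *VPS* gene had more than 1 probe set, while 46 genes of the table did, so probe sets of a gene could not be compared within the family.

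The members were spread over 12 of the 16 chromosomes by their systematic names. Chromosome IV held 8 of them (19.5%), while it held 12.8% of all probe sets in the table. These include *VPS52*, *VPS72* and *VPS60*, which are direct neighbours in RefSeq without overlap and encode a GARP subunit, a SWR1 subunit and an ESCRT-III-like protein. Their mean log2 signals were 7.71, 8.37 and 9.15. Of the 41 genes, 20 lay on the Watson strand and 21 on the Crick strand. In RefSeq, *VPS38* overlapped *DCR2*, *VPS75* overlapped *CWC25* and *VPS5* overlapped *VAM10*, and *VPS63*, the symbol without a row, overlapped *YPT6*. Whether probes of these genes lie in the shared stretch was not examined here.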

How the data were processed

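Total RNA from 3 arrays per condition was measured on Affymetrix yeast arrays. According to the submitters' processing notes and the methods, the authors used RMA in Affymetrix Expression Console and limma. The deposited table has 5705 rows, and its column of average expression per probe set was the value used. By its name, limma's label for the mean over all arrays, it was read as the mean log2 signal over both conditions. Another 5 columns hold the authors' own comparison (log2 difference, moderated t, p, adjusted p and log-odds); they were not used. The other 3 columns were empty. Because no column held a single array, no test between conditions was run, and the comparison with limma that had been planned for values per array was left out.

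RefSeq genes of assembly GCF_000146045.2 R64 gave the symbols, synonyms and gene neighbours, and 5692 of the rows were found there. Quartiles were taken over all rows. Alternatives were membership by synonym, 1 probe set per gene, and leaving out rows below the lower quartile. Every member was named and grouped by complex. The members and lists were chosen with earlier results of these data known. Python 3.11.15, numpy 2.4.6, pandas 2.3.3 and matplotlib 3.10.9 were used. Sequences were not analysed here.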

Additional observations from a re-analysis of the deposited data

How the results depend on the processing

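The median of the mean log2 signals of the *VPS* probe sets was 8.50. It was 8.61 with the 17 genes that carry a *VPS* number as synonym, and 8.67 when only members outside the lowest quartile were kept, which by construction removes the dim ones. The number of probe sets in the lowest quartile of the table was 6, and 10 with the synonym genes. Taking 1 probe set per gene changed neither value, since no member had more than 1. No paired analysis was possible because the table holds no values of single arrays. For the same reason leaving out an array, another filter or another normalization of the comparison between conditions was not run. How far the 6 dim probe sets stood above background was not tested, since the table gives no background signal.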
